A study of Drosophila melanogaster with 3 samples.

Results

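Peaks of az2-GFP whose summit lies in an exon or a 3' UTR made up 256 of the 5786 reproducible peaks in Drosophila melanogaster embryos. The summit is the base of highest signal that the deposited list gives for each peak. A peak was taken when this base lay in a coding exon, a noncoding exon or a 3' UTR, and in no 5' UTR of any transcript (Ensembl BDGP6.54, release 115, on the dm6 genome). Of the 256 peaks, 17 had the summit in coding sequence, 82 in a 3' UTR and 157 in an exon of a noncoding transcript. The other 5530 peaks comprised 2748 in introns, 2430 in intergenic DNA and 352 in 5' UTRs.

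The data came from chromatin immunoprecipitation with sequencing (ChIP-seq) on 3 biological replicates of 1 group. The embryos were 0 to 16 h old, of both sexes, from 1 transgenic line in which GFP is fused to the C-terminus of az2, and chromatin was precipitated through the GFP. All embryos of the line carry the tagged protein, and the peaks therefore describe the tagged protein across all tissues of the embryo together. The reproducible list is the one thresholded by the irreproducible discovery rate (IDR), and the 3 replicates were also deposited as relaxed lists of 30000, 22372 and 30000 peaks, in the order of replicates 1, 2 and 3. Peak lists hold no reads, so the depth of each sample is unknown here. The peaks of the IDR list come from pooled samples and are not replicates of each other, so shares are given with exact binomial (Clopper-Pearson) 95% intervals that cover counting error only.

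Most C2H2 zinc finger proteins of flies, the family to which az2 belongs, bind short DNA words, often in open chromatin at promoters, enhancers or insulators. Coding exons in Drosophila are richer in G and C than introns and intergenic DNA, and their sequence is constrained by the encoded protein. Long noncoding RNA (lncRNA) and antisense RNA (asRNA) genes are different: many start beside the promoter of a coding gene or lie within an intron, so their exons can coincide with regulatory DNA. CTCF, an insulator protein with several zinc fingers, recognises a core that is often written as AGNNGGCGC, where N is any base.

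The sequences below are chosen examples of bases at or near summits in coding exons, 3' UTRs and noncoding exons, and not a typical sample of them. The first set holds 29 bases around the AGNNGGCGC core nearest the summit, read on the strand that carries the core, from the dm6 genome. Capitals mark the 9 bases of the core, which 21 of the 256 peaks hold within 100 bp of the summit. In the stretches printed, its centre lay from 0 bp (Pde1c) to 86 bp (lncRNA:CR46035) from the summit. The set takes in 5 of the 6 coding peaks that hold the core, and the highest peaks with the core in 3' UTRs (3) and noncoding exons (2).
Pde1c, coding, 2L:11816558-11816586, minus strand: cggagccggcAGATGGCGCtgcggcctaa
CG10357, coding, 3L:3616466-3616494, minus strand: taatagtacaAGGTGGCGCtagtaaaata
klar, coding, 3L:506256-506284, plus strand: cccagacccaAGGTGGCGCtgctgtgcag
HisRS, coding, X:18517602-18517630, plus strand: gcaacgttccAGACGGCGCcctctggcgg
Ubr1, coding, X:16967621-16967649, plus strand: tgcactcggcAGGGGGCGCcacaacgacg
CG31752, 3' UTR, 2L:18839711-18839739, minus strand: ggttgccgctAGATGGCGCctaacagaac
CG34279, 3' UTR, 3R:17402607-17402635, minus strand: gtctgcggccAGAGGGCGCcagctgtcaa
raskol, 3' UTR, X:17751916-17751944, plus strand: attcaagagtAGAGGGCGCcgcttacttt
lncRNA:CR46035, noncoding exon, 3R:17704490-17704518, minus strand: cgttcatttcAGTTGGCGCtgatgcacag
lncRNA:CR43838, noncoding exon, X:20760526-20760554, plus strand: gcgccctcatAGGTGGCGCtttcatgaga

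The second set gives 30 bases around the summit of the highest peaks in noncoding exons (3) and 3' UTRs (2), on the plus strand, with every A and T in capitals. They count 25, 18, 25, 18 and 25 of 30 bases in this order.
lncRNA:Vinr, noncoding exon, X:12751307-12751336: TTTgAAATATAAATTTTgATATATgccAAT
lncRNA:CR46035, noncoding exon, 3R:17704403-17704432: cTgATcAAgTcAcTcATcAAAAgAcTgAAc
lncRNA:CR44619, noncoding exon, X:12752353-12752382: TcgAAATTTgAAgAAAATAcAAAAAAATAT
CG33947, 3' UTR, 3L:11098361-11098390: ccATggAATgcTATTcAAAAAcTgTcAAcc
Cals, 3' UTR, 4:1113330-1113359: AATATgcTTTgTTTTATTgTTAAAAAgTTT

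The last set shows 2 further words within 100 bp of summits in noncoding exons, 8 bases in capitals in 30 bases. CACTGAGA and TATCGATA were among the 5 words ranked highest on the other peaks of the IDR list, as described further down.
lncRNA:CR44149, 2L:9568805-9568834, minus strand: agcgagcggtgCACTGAGAgaaatagagtt
lncRNA:CR43334, 3L:640654-640683, plus strand: ggagcgaaaaaCACTGAGAgaaataagagt
asRNA:CR45648, 3R:22724617-22724646, plus strand: aaacattatatTATCGATAactgaacatga

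Exons of the 3 kinds held az2-GFP summits at very different densities. Coding sequence held 0.757 summits per Mb over 22.5 Mb, 3' UTRs held 12.4 per Mb over 6.61 Mb, and noncoding exons held 67.8 per Mb over 2.32 Mb. The whole genome held 43.3 per Mb, with 48.1 in introns, 59.7 in intergenic DNA and 77.9 in 5' UTRs. Coding sequence held fewer than any other class. The pooled value of noncoding exons was near those of introns and intergenic DNA, but it did not stay near them when DNA was split by distance to transcription start sites (TSSs). Farther than 500 bp from any TSS there were 0.38 summits per Mb in coding sequence, 7.59 in 3' UTRs and 57.2 in noncoding exons, against 39.7 in introns and 24.7 in intergenic DNA. Within 500 bp of a TSS the values were 2.47, 54.1 and 76.8 per Mb for coding sequence, 3' UTRs and noncoding exons, against 152 in introns and 348 in intergenic DNA. Noncoding exons were thus above introns and intergenic DNA away from TSSs and below them near TSSs, and 1.25 of their 2.32 Mb lay within 500 bp of a TSS. Distances beyond 500 bp were not matched between the classes. Of noncoding exon peaks, 8.28% lay farther than 2000 bp from any TSS, against 45.3% of intron peaks and 23% of intergenic peaks. No test was made, since these are counts of 1 pooled list.

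**Figure D1:**
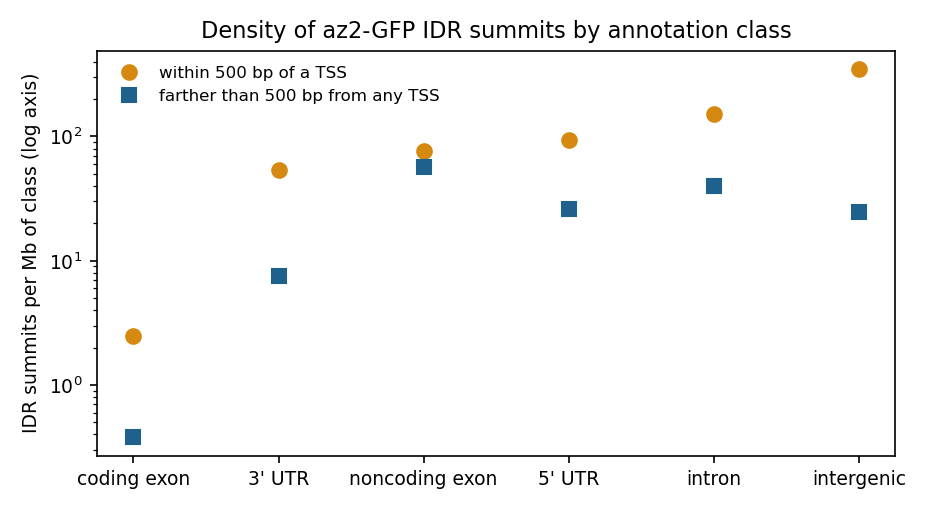
Density of IDR summits in each annotation class, in summits per Mb of that class on a log axis, within 500 bp of a TSS (circles) and farther than that from any TSS (squares). Coding exons are lowest at 2.47 and 0.38 per Mb, and noncoding exons have 76.8 and 57.2 per Mb, a smaller gap between near and far than in any other class.

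Base composition moved with the class, and its part in these densities was compared by splitting the genome by the G+C content of the 201 bases around each position. At a G+C content of 35 to 40%, coding sequence held 4.45 summits per Mb (5 summits in 1.12 Mb), 3' UTRs 8.08 and noncoding exons 101, against 57.6 in introns and 81.6 in intergenic DNA. At 50% G+C or more, coding sequence held 0.501 per Mb (7 summits in 14 Mb), against 5.69 in introns and 5.35 in intergenic DNA. In that class 3' UTRs held 19.9 per Mb and noncoding exons 2.13, which rest on 6 summits in 0.301 Mb and 1 summit in 0.469 Mb. Across the whole genome the density was 103 per Mb below 30% G+C and 3.58 per Mb at 50% or more. Noncoding exons followed that course. The 3' UTR density did not, lying between 8.08 and 19.9 per Mb in all 6 classes of G+C content.

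The signal of exon and 3' UTR peaks was close to that of the whole IDR list. Its median was 232.8 (quartiles 169.5 and 373.8, range 133 to 1999), against 232.5 over all IDR peaks (quartiles 169.8 and 372.1). By kind, the medians were 185.8 for coding, 227.8 for 3' UTR and 237 for noncoding exon peaks. In the replicates' own lists the median signal of exon and 3' UTR peaks was 57.92, 98.24 and 87.22 in replicates 1, 2 and 3, against 57.76, 96.87 and 86.55 for the other IDR peaks. The mean difference of the median log2 signal, exon and 3' UTR peaks minus other peaks, was 0.0118 ± 0.0082 (SD, n = 3; exact two-sided sign-flip test p = 0.25, the smallest that 3 replicates allow). It turned to -0.0143 when 21 peaks inside transposable element records were counted as exon peaks. Cut into 4 equal parts from high to low signal, the IDR list held them as 4.5, 4.49, 4.15 and 4.56% of its peaks. The uppermost of the 4 held 65 of the 256 (25.4%), where 25% of all IDR peaks lie by construction. Below the IDR list, the relaxed list of pooled samples held 21359 further entries, of which 2725 (12.8%) had an exon or 3' UTR summit. By its label that list holds peaks and background together, so an entry there need not be a bound site. Of the 2725, 1441 were coding, 758 in 3' UTRs and 526 in noncoding exons, so coding sequence had the largest count there and the smallest in the IDR list. These are counts and not densities, and the 3 classes cover 22.5, 6.61 and 2.32 Mb in that order.

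**Figure D2:**
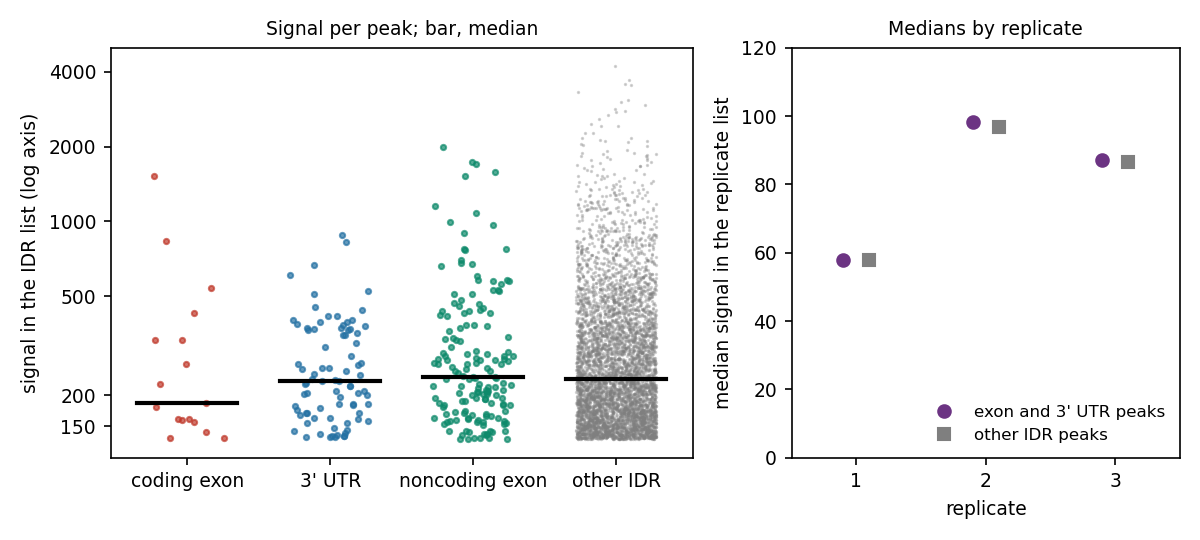
Left, signal of each IDR peak on a log axis by kind of exon, with the other IDR peaks; bars are medians (185.8, 227.8, 237 and 232.5). Right, median signal in each of the 3 replicate lists for exon and 3' UTR peaks (circles) and other IDR peaks (squares), which nearly coincide in every replicate.

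The replicates held these peaks about as often as others. For this comparison only the 5786 highest-signal peaks of every replicate list were kept, as many as the IDR list holds. The summit lay inside a peak of all 3 reduced lists for 193 of 256 exon and 3' UTR peaks (75.4%, 69.6 to 80.5), against 72.6% of all IDR peaks. The count was 11 of 17 for coding, 60 of 82 for 3' UTR and 122 of 157 for noncoding exon peaks. In replicate 2, 12 of the 17 coding peaks were held (70.6%, 44 to 89.7), against 16 in replicate 1 (94.1%, 71.3 to 99.9) and 15 in replicate 3 (88.2%, 63.6 to 98.5). These intervals overlap. Of all IDR peaks, 85.5, 89.6 and 89.3% were held in replicates 1, 2 and 3. The class itself rests on 1 base, so the replicates' own summits were looked up. All 3 of them lay in an exon or 3' UTR for 209 of 255 peaks (82.0%, 76.7 to 86.5), and none of them for 4. Summits were a median 117 bp from the nearer edge of the exon (quartiles 44.75 and 408.5 bp), and in 229 of 256 peaks at least 50% of the peak's length was exon outside 5' UTRs. Coding peaks reached that share in 11 of 17 cases.

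Coding peaks were few, and the 4 of highest signal lay more than 1 kb from any TSS, 3 of them in the last exon of their gene. The highest was in otp, which encodes the homeodomain transcription factor orthopedia, at 2R:20884413-20884777, with a signal of 1517.12 in the IDR list. Its replicate signals were 309, 638 and 570, and the summit lay in the last exon, shared by all 9 transcripts, 4657 bp from the nearest TSS. Pde1c, a calcium and calmodulin dependent cyclic nucleotide phosphodiesterase gene, followed with 835 at 2L:11816420-11816724 (replicates 228, 272 and 337), again in the last exon and in all 9 transcripts, 2792 bp from the nearest TSS. CG10357 had 541 (111, 216 and 222) at 3L:3616399-3616687, 1160 bp from its TSS. The nearest end of a transcript of the same gene was 962 bp away in otp, 587 bp in Pde1c and 140 bp in CG10357. The klar gene, for the nuclear positioning protein Klarsicht, had 427 (49.3, 164 and 208) at 3L:506112-506362, in an internal exon 3073 bp from the nearest TSS. In each of the 4, replicate 1 gave the lowest value, as it did for the median of the other IDR peaks. CG44812 came next with 334 (63.9, 140 and 123), 383 bp from its TSS and 37 bp from its end, and CG31279 with 332.

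The remaining coding peaks were weaker, and 10 of the 17 lay within 500 bp of a TSS. Several sat in a first exon: eIF3h, a translation initiation factor subunit, 70 bp from its TSS with a signal of 156, Got2, the mitochondrial aspartate aminotransferase, at 117 bp with 160, and CG18011 at 56 bp with 142. Others sat at the end of 1 gene just before the next: the CG31279 summit was 217 bp upstream of Fntb, a farnesyltransferase subunit, and the CG2656 summit 187 bp upstream of gfzf. The peak of l(3)mbn had 186 in the IDR list but 82.0, 31.9 and 74.7 in replicates 1, 2 and 3, and Sh3beta (134) was in none of the 3 reduced lists.

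Of the coding peaks, 6 of 17 (35.3%, 14.2 to 61.7) held the AGNNGGCGC core within 100 bp of the summit, against 3.25% of all IDR peaks. It was picked for description from 13 motifs counted, with their values in view. The 6 peaks were in otp, Pde1c, CG10357, klar, HisRS (a histidyl-tRNA synthetase, 222) and Ubr1 (a ubiquitin ligase, 178). These include the 4 coding peaks of highest signal, and all 6 were held in all 3 reduced lists. The median signal was 484 for coding peaks with the core and 160 for those without. The core is G and C rich, as coding sequence is, so tiles of 201 bp over all exons outside 5' UTRs were counted in the same way. Of 126910 tiles, 3.21% held the core, and 5.09% of those with 50% G+C or more. Among peaks in that same class of G+C content, 7 of 14 exon and 3' UTR peaks (50%, 23 to 77) held it, against 8 of 85 other IDR peaks (9.41%, 4.15 to 17.7). Between 40 and 50% G+C, 11 of 58 (19%, 9.87 to 31.4) held it, against 57 of 829 other peaks (6.88%). Below 40%, 3 of 184 held it (1.63%), against 2.21% of other peaks.

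The core was also found in 8 of 82 3' UTR peaks (9.76%, 4.31 to 18.3) and in 7 of 157 noncoding exon peaks (4.46%, 1.81 to 8.97). That makes 21 of 256 (8.2%, 5.15 to 12.3), against 3.02% of the other IDR peaks. Farther than 500 bp from any TSS the share was 15 of 113 (13.3%, 7.62 to 20.9), against 2.88% of other IDR peaks at such distances, and within 500 bp it was 6 of 143 (4.2%). The centre of the core lay within 25 bp of the summit in 11 of the 21 peaks (52.4%), and the median distance was 23 bp. Among other IDR peaks with the core this was 69 of 167 (41.3%), with a median of 33 bp. Among coding peaks it was 2 of 6, with a median of 37.5 bp. In Pde1c the centre of the core coincided with the summit, and in CG31752 it lay 2 bp away. The 3' UTR peaks with the core included Cam (calmodulin, signal 231), Hr4 (a nuclear hormone receptor, 228), raskol (a Ras GTPase activating protein, 257), pros (the homeodomain factor prospero, 184) and para (a voltage-gated sodium channel, 137). Among the noncoding exon peaks, lncRNA:CR46035 had the highest signal, but its core was 86 bp from the summit. The summit in asRNA:CR45822, with the core at 5 bp, lay 196 bp from a TSS of the CTCF gene (signal 183). The 21 peaks had a median signal of 228, against 234 for exon and 3' UTR peaks without the core, so a higher signal was seen for the coding peaks and not for the whole set.

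**Figure D3:**
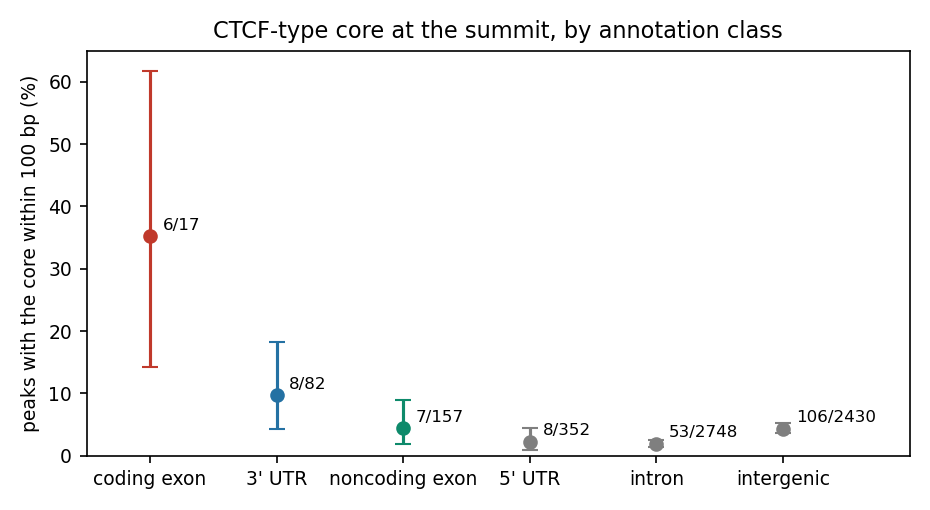
Share of IDR peaks with the 9-base CTCF-type core within 100 bp of the summit, by annotation class, with exact binomial 95% intervals and counts. The coding share is 35.3% (14.2 to 61.7) from 17 peaks, and the shares of 5' UTR, intron and intergenic peaks lie between 1.93 and 4.36%.

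The base composition around the summit had 2 forms. In noncoding exons the G+C content fell towards the summit, to a median 31.4% within 25 bp of it, against 44.5% at 301 to 500 bp. The same was seen in 3' UTRs, with 31.4% and 43.8%, and in the other IDR peaks, with 31.4% and 44.5%. In coding peaks it was 51.0% within 25 bp and 43.5% at 301 to 500 bp. The centre was below the flanks in 4 of 17 coding peaks, 63 of 82 3' UTR peaks and 137 of 157 noncoding exon peaks, against 82.9% of other IDR peaks. Exon tiles had a median of 50.7%. Coding summits lie in coding exons by the rule, at a median 104 bp from the exon's edge, so much of the flanks is other DNA and the higher centre of coding peaks follows in part from the class. The 3' UTR and noncoding exon centres were at the level of the other peaks.

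**Figure D4:**
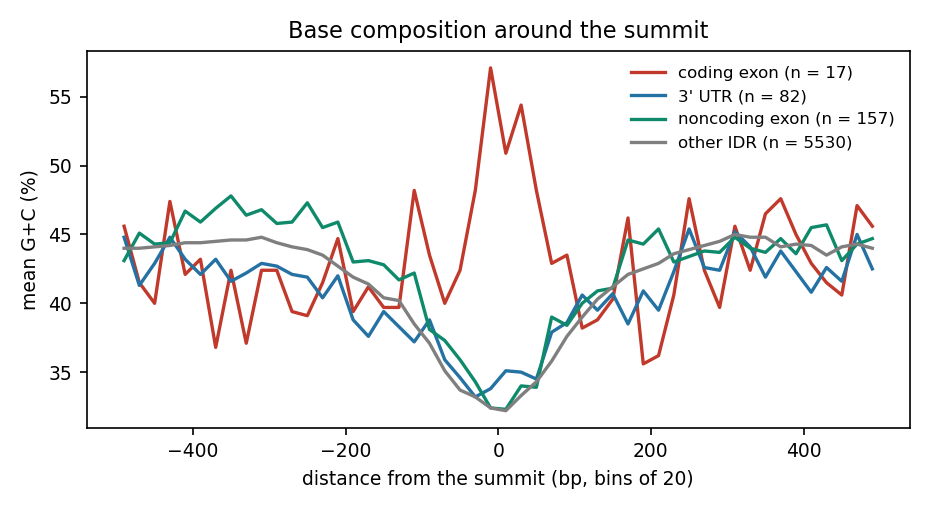
Mean G+C content in bins of 20 bp around the summit for coding, 3' UTR and noncoding exon peaks and for the other IDR peaks. Coding peaks rise at the summit to 57.1% in 1 bin, whereas the other 3 curves dip to between 32.2 and 33.2%.

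Of the short words ranked on the other IDR peaks against exon tiles, 5 were counted in the exon and 3' UTR peaks within 100 bp of the summit on both strands. These 5 had the largest share in other IDR peaks relative to tiles, so the shares of both are fixed in part by that choice. TATCGATA, the core of the DNA replication-related element bound by DREF at fly promoters, was in 8 of 256 (3.12%, 1.36 to 6.06), against 3.23% of all IDR peaks and 0.265% of exon tiles. All 8 were in noncoding exons (8 of 157), and all 8 lay within 500 bp of a TSS (8 of 143). Beyond 500 bp it was in 0 of 113, which leaves room for up to 3.21%, against 14 of 3021 other IDR peaks (0.463%). At all distances 179 of the 5530 other IDR peaks held it, so most of theirs also lay within 500 bp of a TSS. TACACTGA was in 7 (2.73%, background 3.63%), CACTGAGA in 10 (3.91%, background 4.56%), CTGAGAGA in 6 (2.34%, background 2.51%) and TGAGAGAA in 8 (3.12%, background 2.8%). The last 4 overlap one another: in lncRNA:CR44149 and lncRNA:CR43334 above, CACTGAGA runs into gaa, so CTGAGAGA and TGAGAGAA are read from the same stretch. At least 1 of the 5 words was in 23 of 256 (8.98%, 5.78 to 13.2), against 11.3% of other IDR peaks and 1.65% of tiles. By kind these were 20 of 157 noncoding exon peaks, 3 of 82 3' UTR peaks and 0 of 17 coding peaks, where a count of 0 leaves room for up to 19.5%. CACTG, shared by 2 of the words, was in 138 of 256 (53.9%, 47.6 to 60.1), against 48.6% of all IDR peaks and 35.3% of tiles. TAATTA, a homeodomain core, was in 42 (16.4%), against 19% of all IDR peaks and 5.86% of tiles, and in 0 of 17 coding peaks. There were 5 other motifs among the 13 counted. CAGCTG, an E-box, was in 24 of 256 (9.38%), against 8.42% of all IDR peaks and 12.1% of tiles, and in 4 of 17 coding peaks (23.5%, 6.81 to 49.9). CANCNCTA was in 18 (7.03%, background 10.3%), GAGAGAG, the letters bound by GAGA factor, in 10 (3.91%, background 2.83%), GGTCACAC in 4 (1.56%, background 1.97%) and CAGGTAG, the letters bound by Zelda, in 2 (0.781%, background 0.778%). A match is a description of the letters and not evidence of a site.

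The 3' UTR peaks lay just upstream of another gene more often than 3' UTR DNA does, and about as often as IDR peaks lie upstream of a TSS. Of the 82, 33 (40.2%, 29.6 to 51.7) were upstream of another gene's TSS by at most 500 bp, against 8.1% of 3' UTR bases, counted at 1 base in 50. Of all IDR peaks, 38.5% lay as close upstream of the nearest TSS of any gene. In 29 of the 33 (87.9%, 71.8 to 96.6) the other gene was on the same strand, as at 89.8% of such 3' UTR bases, so this arrangement is that of 3' UTRs in general. By position in their own gene, 71 were within 500 bp of the end of a transcript, where 3' UTRs lie, and 3 within 500 bp of its TSS. The highest was in CG33947 at 3L:11098190-11098608, with 885 in the IDR list (replicates 201, 354 and 319), 36 bp upstream of APP-BP1, a subunit of the Nedd8-activating enzyme. The shared 3' UTR end of Coq4 (ubiquinone synthesis) and frc (a nucleotide sugar transporter), which overlap there, had 607 (140, 284 and 183), 102 bp upstream of Gorab. CG7227 had 511, 224 bp upstream of pes, and the peak in CG31542 and CG34277 had 452, 53 bp upstream of Polr2F, a subunit of the RNA polymerases. The peak of mRpL27, a mitochondrial ribosomal protein, lay 252 bp upstream of RpL27A, a cytosolic one (223).

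Other 3' UTR peaks had no TSS close by: 45 of 82 were beyond 500 bp and 18 beyond 2000 bp. Cals, for the cadherin-like calsyntenin, on the small chromosome 4, had the highest of these with 826 (181, 366 and 269) at 4:1113149-1113504, 9620 bp from its TSS and 471 bp from a transcript end. CG7872 had 668 (142, 296 and 222), 1591 bp from its own TSS. CG33307 had 524, and stas had 414 at 2781 bp from its TSS. In these 4 peaks replicate 1 gave the lowest value and replicate 2 the highest, as for the medians of the other IDR peaks.

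**Figure D5:**
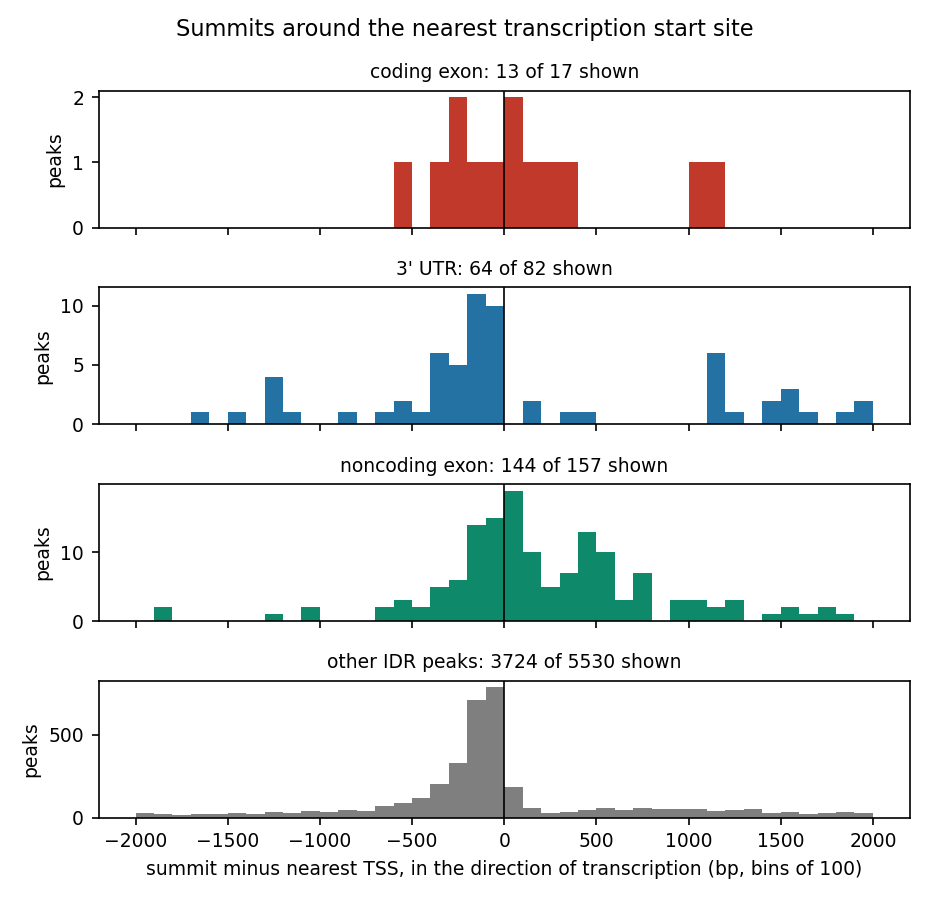
Summits around the nearest TSS, in bp along the direction of transcription, in bins of 100 bp; 13 of 17, 64 of 82, 144 of 157 and 3724 of 5530 peaks lie in the range shown. The 3' UTR peaks gather upstream of a TSS like the other IDR peaks, whereas noncoding exon peaks extend to both sides.

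Relative to all annotated TSSs, including those of noncoding genes, 143 of 256 exon and 3' UTR peaks (55.9%, 49.5 to 62.0) lay within 500 bp, against 45.8% of all IDR peaks. With TSSs of protein-coding genes alone the order turned: 37.9%, against 43.4% of other IDR peaks. Of the 143, 63 (44.1%, 35.8 to 52.6) were downstream of the nearest TSS, against 14.3% of other IDR peaks within 500 bp. Exons begin at a TSS and run downstream, so the rule itself fixes part of that difference. Farther than 2000 bp from any TSS lay 35 of 256 (13.7%), against 31.8% of all IDR peaks.

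Noncoding exon peaks included the highest signals, and in their place within the gene they were close to noncoding exon DNA as a whole. The summit lay in a transcript of 1 exon in 99 of 157 cases (63.1%, 55 to 70.6), against 57.5% of noncoding exon bases, counted at 1 base in 50. It was within 500 bp of the gene's own TSS in 67 (42.7%, 34.8 to 50.8), against 47.8% of bases, and in an intron of another gene in 48 (30.6%, 23.5 to 38.4), against 27.5%. What differed from noncoding exon DNA was the neighbour. In 51 cases (32.5%, 25.2 to 40.4) the summit was upstream of another gene's TSS by at most 500 bp, against 13.3% of bases. As close upstream of the nearest TSS of any gene lay 42 of the 157 (26.8%), against 38.5% of all IDR peaks. Of the 51 other genes, 5 (9.8%, 3.26 to 21.4) were on the same strand, against 42.6% at noncoding exon bases upstream of another gene's TSS. The 137 noncoding RNA genes with a peak had a median length of 1188 bp, against 601 bp for the 2964 that host no microRNA. These sets overlap: the 137 include 10 microRNA hosts, and the 2964 include 127 genes with a peak. Exon peaks were found in 98 of 1944 lncRNA genes (5.04%) and 38 of 503 asRNA genes (7.55%), against 103 of 13945 protein-coding genes (0.739%) and 245 of 18164 genes in all (1.35%). Per gene, no account is taken of the length of exons. The rule also leaves out the 352 IDR peaks in 5' UTRs, which coding genes have and noncoding genes lack. Part of the difference between noncoding and coding genes is therefore fixed by the rule.

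The highest exon peak of all was in lncRNA:Vinr at X:12750829-12751643, 815 bp long, with a signal of 1998.66 (replicates 451, 820 and 635). Vinr is known as a virus-inducible lncRNA in flies. The next gene on the same strand, lncRNA:CR44619, held another with 1702 (358, 782 and 566) at X:12752162-12752559, and a further one with 578 (144, 216 and 213) 2152 bp on. Thus 3 exon peaks lay in tandem over less than 4 kb. The peak in lncRNA:CR46035 at 3R:17704233-17704608 had 1729 (394, 753 and 588), and lies in an intron of osa, a subunit of the Brahma chromatin remodelling complex. The peak in asRNA:CR45928 on 2R had 1582 (345, 721 and 513), within an intron of ytr, and lncRNA:CR44149 on 2L had 1523 (352, 649 and 530), 50 bp from its TSS. In each of these 5 genes replicate 2 was highest and replicate 1 lowest, the same order as the medians of the other IDR peaks.

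Further noncoding peaks among the 25 highest were in lncRNA:CR44810 (1148), lncRNA:CR44363 (1079), asRNA:CR45326 (991), lncRNA:CR43626 (963) and lncRNA:CR46102 (894). The asRNA:CR45326 summit was 75 bp upstream of Alg3, a mannosyltransferase gene of N-glycan synthesis, and its replicates differed from the rest, with 335, 321 and 344. The lncRNA:CR46102 peak lay in an intron of LpR2, a lipophorin receptor gene. The same held for lncRNA:CR44409 (774) in an intron of Dif, an NF-kappaB factor of the Toll pathway, and lncRNA:CR45997 (766) in an intron of mbl, a splicing regulator. Then came lncRNA:CR44380 (773), lncRNA:CR44917 (677), lncRNA:CR46535 (676), lncRNA:CR44209 (660), lncRNA:CR31840 (602) and lncRNA:CR44365 (583). In lncRNA:CR31840 replicate 1 was the highest, with 286, against 137 and 188 in replicates 2 and 3.

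More than 1 exon or 3' UTR peak was held by 11 genes. The lncRNA:CR43334 gene, which contains the microRNA bantam, a growth promoting microRNA, held 6 over 12452 bp on 3L (630258 to 642709). Their signals were 700, 529, 471, 302, 277 and 258, and the highest, at 3L:634667-634972, had 156, 288 and 254 in replicates 1, 2 and 3. The lncRNA:CR43650 gene, which contains mir-8, held 3 (292, 207 and 140), and lncRNA:CR44603 held 3 (298, 250 and 138). The asRNA:CR45270 gene held 3 (165, 135 and 133), of which the highest lay 156 bp from a TSS of grh, the epithelial transcription factor grainy head. The lncRNA:Hsromega gene, the noncoding heat shock locus, held 2 (427 and 168). In CG10731, lncRNA:CR44831, asRNA:CR45140, lncRNA:CR44022 and asRNA:CR46485 the outer summits were only 200 to 285 bp apart. In CG10731 both overlap and share 1 peak in each replicate list, so these are hardly separate observations.

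Some of the noncoding genes host a microRNA, a count made after the values were seen. Of 37 noncoding RNA genes that contain a microRNA on the same strand, 10 (27%) held an exon peak, against 127 of 2964 other noncoding RNA genes (4.28%). Together they held 18 of the 256 peaks. Besides the hosts of bantam and mir-8 and lncRNA:Hsromega (mir-4951), they were lncRNA:CR43626 (mir-282, signal 963), lncRNA:CR45911 (mir-2c, mir-13a and mir-13b-1, 360), lncRNA:CR45345 (mir-375, 195), lncRNA:CR43459 (mir-277 and mir-34, 193), lncRNA:CR43857 (mir-275, 185), lncRNA:CR43836 (mir-31b, 156) and lncRNA:CR43651 (mir-14, 134). Gene length moved with this: the host genes had a median length of 6436 bp, against 601 bp for the other noncoding RNA genes, and its part in the count was not tested.

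Several gene families had no such peak: 0 of 88 genes of cytosolic ribosomal proteins, 0 of 257 snoRNA genes, 0 of 115 histone genes, 0 of 71 cuticle protein genes, 0 of 186 chemoreceptor genes, 0 of 25 heat shock protein genes, 0 of 51 odorant-binding protein genes and 0 of 15 actin and tubulin genes. Single members held 1 in the mitochondrial ribosomal proteins (mRpL27, 1 of 73), the tRNAs (tRNA:Gly-TCC-1-2, signal 153) and the snRNAs (snRNA:U1:95Ca, a component of the U1 splicing particle, 203). Pseudogenes with a peak were CR42875 (561) and CR14033 (134). Over all genes the share was 1.35%, and over protein-coding genes it was 0.739%. At such a share, counts of 0 in protein-coding families this small do not set them apart. Peaks in the 5' UTRs of these genes are not counted here.

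By arm, exon and 3' UTR peaks made up 55 of 1083 IDR peaks on 2L, 59 of 989 on 2R, 44 of 1252 on 3L, 54 of 1394 on 3R, 2 of 22 on chromosome 4 and 42 of 1046 on X. The lowest share was 3.51% on 3L and the highest, apart from the few peaks of chromosome 4, 5.97% on 2R. On X there were 22 3' UTR peaks and 18 noncoding exon peaks, the sole large arm where 3' UTR peaks were the more numerous. The 3 exon peaks of lowest signal were in CR14033 (133.567), asRNA:CR45270 (133.35) and lncRNA:CR43627 (133.047), close to the floor of the IDR list at 132.9.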

How the data were processed

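ChIP-seq of az2-GFP was done by the authors on 3 replicates of embryos (0 to 16 h), with chromatin sonicated to 200 to 800 bp per the labels. The deposited signal (column 7) is never negative and was taken as a linear enrichment score. The deposited summit offset (column 10), an other kind of value, was added to the start to place each peak. The peak caller, its version, the control and the IDR threshold are not given in the sources used here. Lists of dm6 on arms 2L, 2R, 3L, 3R, 4 and X were used, with 1-based coordinates, and the dm3 lists were not used. The Release 6 RefSeq genome, which has the dm6 coordinates, gave all sequences.

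Summits were classed by Ensembl BDGP6.54 as 5' UTR first, then coding (stop codons included), 3' UTR, noncoding exon, intron and intergenic. Exon records of transposable elements were left out, which set aside 21 summits, 18 of them in INE-1 elements. Coverage means that a peak of the replicate, among its 5786 of highest signal, contains the summit. Words of 8 bases, present in at least 1% of the other IDR peaks, were ranked by their share there over that in exon tiles of 201 bp, and the first 5 were kept. With these, 13 motifs were counted in windows of 100 bp to either side. The list of known motifs foreseen at the outset did not come with the files, so another of motifs with 9 letters or fewer was drawn up. The genes named are the 25 peaks of highest signal, the highest 5 of each kind and of those beyond 2000 bp from a TSS, genes with several peaks, group members, peaks whose bases are printed and the last 3; the peaks with the AGNNGGCGC core and the microRNA hosts were added after their values were seen, as were a few weaker coding and 3' UTR peaks named as examples. Shares of 3' UTR and noncoding exon DNA were taken over 1 base in 50 of the class, a background added after the values of the peaks were seen. The members and lists were chosen with earlier results of these data known. The classification, word ranking and sign-flip were tested on simulated data. Python 3.11.15, pandas 2.3.3, NumPy 2.4.6 and SciPy 1.17.1 were used.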

Additional observations from a re-analysis of the deposited data

How the results depend on the processing

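No read depth is held in the lists, so depth sets no limit that can be computed here, and 3 replicates cannot give an exact p below 0.25. The number of exon and 3' UTR peaks was 99 with exons of protein-coding genes only and 130 among the 50% of IDR peaks of higher signal. Peak centres, summits in no intron, peaks with at least 50% exon and peaks in all 3 reduced lists kept it within 1.5 times of 256. The percent covered in all 3 replicates was 97.3 with lists of 2 times the length, 99.6 with the whole lists and 57.8 with reciprocal overlap of 50%. With a replicate left out, 201 to 211 of the same 256 peaks (78.5 to 82.4%) were covered in the remaining reduced lists, against 193 in all 3. The percent within 500 bp of a TSS was 38.3 at 250 bp, 68.8 at 1000 bp and 37.9 with TSSs of protein-coding genes. The percent with 1 of the 5 words was 3.91 within 50 bp and 17.2 within 200 bp, and that with AGNNGGCGC was 13.3 farther than 500 bp from a TSS, 6.25 within 50 bp and 10.5 within 200 bp. The windows differ in length by construction, and the cause of the other shifts was not tested. The difference of median log2 signal stayed positive without each replicate (0.00757 to 0.0158) and turned to -0.0143 with transposable element records counted as exons, an alternative chosen after seeing the data, as were those for AGNNGGCGC. No paired analysis was possible because there is 1 group.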

Other observations

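The 21 summits whose exon record belongs to a transposable element alone had a median signal of 179.9, against 232.5 over all IDR peaks. Of these, 18 lay in INE-1, a short and very numerous element of the fly genome, and 9 lay in introns of genes.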
